A study of Mus musculus with 4 samples.

Results

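The carbonic anhydrases are zinc enzymes that convert carbon dioxide and water into bicarbonate and a proton, and so set pH and carry CO2 within cells, in mitochondria and at the cell surface. Some family members, the carbonic anhydrase-related proteins, lack zinc-binding residues and do not catalyse the reaction. In skeletal muscle the family is best known for Car3, the cytosolic form of slow fibres, which is also abundant in adipocytes. The 10 genes described here are Car2, Car3, Car4, Car5b, Car6, Car8, Car9, Car11, Car12 and Car13, out of 19938 genes with a probe set of their own. A gene entered by its name, and its brightest probe set over the 4 arrays would have stood for it, but each of the 10 had exactly 1. The family was chosen on measured values: the fall of Car3 in the same shPW1 against Ctl comparison was already known. The values of the 10 genes are therefore given as a description, without p-values, and support nothing beyond themselves. Another 6 family genes had a probe set and are described beside them.

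RNA came from growing mesoangioblasts, vessel-associated progenitors of skeletal muscle, taken from the tibialis anterior of adult male C57/BL6 mice and cultured in DMEM with fetal bovine serum. The cells were a polyclonal population (AdmMABs) transduced with lentivirus, which brought in a hairpin RNA that targets PW1 in the shPW1 group (2 arrays) and a scrambled hairpin in the Ctl group (2 arrays). Each array held 1 of the RNA extractions of a transduced population, so the spread between arrays may be technical, and a single hairpin was used. The methods place the shPW1 hairpin in pLV-H1 and a control hairpin in pLKO.1, but do not give the vector used for the Ctl arrays, and an effect of the vector or of the hairpin itself and the loss of PW1 cannot be told apart.

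Values are log2 expression after robust multiarray averaging (RMA), so a difference of 1 is a doubling. Peg3, which encodes PW1, was at 8.67 and 8.70 in Ctl and at 6.22 and 6.47 in shPW1, which gave a log2 difference of -2.34 with a standard error of 0.10 (limma, adjusted p = 0.00428). Among markers of mesoangioblasts and pericytes, Acta2, Pdgfrb and Cd34 had Ctl means of 13.1, 10.8 and 9.05, while Alpl (alkaline phosphatase) and Rgs5 had 5.85 and 3.70, and the middle value over all probe sets tested was 6.05. No detection call was available, so a low value may hold no signal of the gene, and levels of different genes are not comparable because each probe set binds differently.

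Of the 10 carbonic anhydrase genes, 4 were lower in shPW1 AdmMABs at an adjusted p under 0.05 in the fit over all probe sets, 0 were higher and 6 did not pass. Among all 21789 probe sets tested, 4.17% were lower and 4.93% were higher by the same threshold, figures that stand beside the count only as background because the comparison chose the family. The lower genes were all 3 cytosolic enzymes (Car2, Car3 and Car13) and the cytosolic related protein Car8. The middle log2 difference of the 10 was -0.04, against -0.01 over all probe sets.

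**Figure D1:**
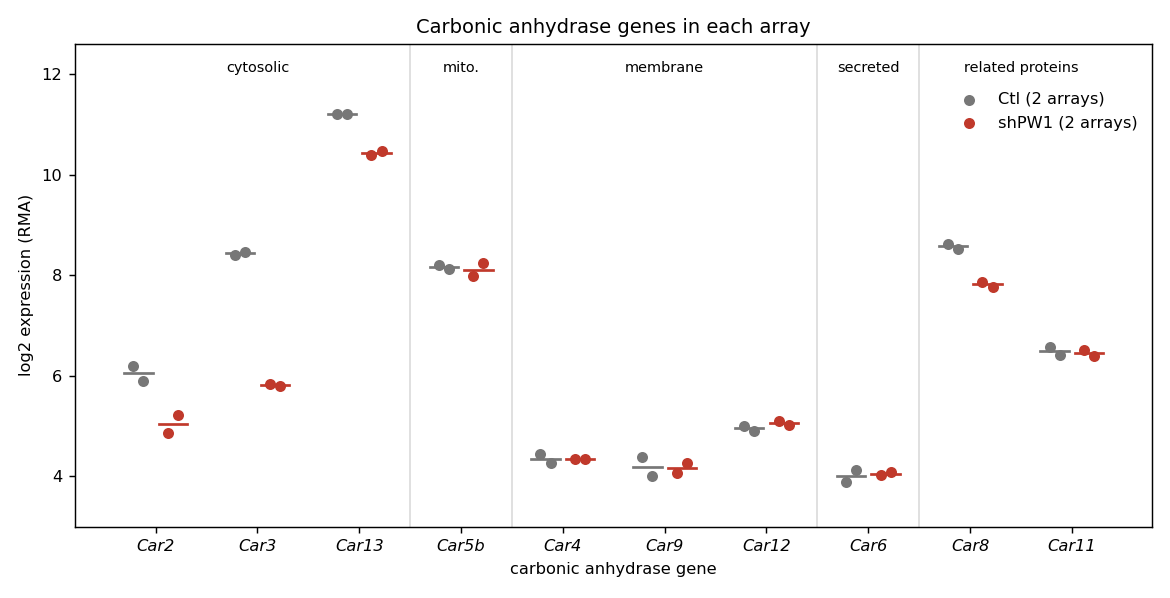
Log2 expression (vertical axis) of the 10 carbonic anhydrase genes (horizontal axis), grouped by where the protein works; each point is 1 array (2 Ctl in grey, 2 shPW1 in red), each short line is a group mean, and heights of different genes are not comparable. The shPW1 points of Car3, at 5.84 and 5.81, lie furthest below their Ctl points, at 8.41 and 8.47, and the groups of Car4, Car5b, Car6, Car9 and Car11 overlap.

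Car3 encodes a cytosolic enzyme with low CO2 hydration activity. Ctl arrays gave log2 values of 8.41 and 8.47 for it, and shPW1 arrays gave 5.84 and 5.81. The groups lay far apart, with replicates within 0.06 in Ctl and 0.04 in shPW1. The log2 difference was -2.61 (standard error 0.06), a 6.10-fold lower level. By size of fall Car3 stood in place 2 of 19938 genes, which restates the choice of the family. With any 1 array left out the log2 difference lay between -2.64 and -2.58.

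Car2 encodes the fast, widely expressed cytosolic enzyme of red cells, kidney and osteoclasts. It had 6.20 and 5.90 in Ctl and 4.86 and 5.23 in shPW1. Both shPW1 arrays were below both Ctl arrays, but the replicates lay 0.29 apart in Ctl and 0.37 apart in shPW1, more than in the other 3 lower genes. The log2 difference was -1.00 (standard error 0.16), a 2.01-fold lower level, and it lay between -1.19 and -0.82 with any 1 array left out. Car2 no longer passed the threshold when the values were quantile normalized again (-0.94), when all rows of the table were tested, when the replicate number was used as a block, or in the analysis of variance of the methods at its unadjusted threshold.

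Car13 encodes a further cytosolic enzyme. It was at 11.21 in both Ctl arrays and at 10.39 and 10.47 in shPW1, well separated groups. The log2 difference was -0.78 (standard error 0.06), a 1.72-fold lower level.

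Car8 encodes a related protein without catalytic activity, which binds the IP3 receptor Itpr1 and is best known from Purkinje neurons. It was at 8.62 and 8.53 in Ctl and at 7.87 and 7.77 in shPW1. Both shPW1 arrays were again below both Ctl arrays, with a log2 difference of -0.75 (standard error 0.07), a 1.68-fold lower level. With all rows of the table tested, Car8 and Car13 did not pass either, and Car3 alone of the 10 genes did. With crossed pairing of the replicates, chosen after seeing the data, Car8 did not pass. Car11 encodes another inactive related protein. Its values of 6.57 and 6.42 in Ctl and 6.52 and 6.40 in shPW1 overlapped, and its log2 difference of -0.04 had a 95% interval from -0.25 to 0.18.

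Car5b encodes the mitochondrial enzyme, which supplies bicarbonate to carboxylases. It was at 8.20 and 8.13 in Ctl and at 7.99 and 8.24 in shPW1. The shPW1 arrays lay on both sides of the Ctl arrays, and the log2 difference of -0.05 had a 95% interval from -0.32 to 0.22.

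The enzymes that face the outside of the cell are anchored in the membrane by a lipid (Car4) or a transmembrane segment (Car9 and Car12), or are secreted, as is Car6 of saliva. Car4 was at 4.44 and 4.26 in Ctl and at 4.34 and 4.35 in shPW1, and its interval ran from -0.22 to 0.20. Car9, which hypoxia-inducible factors induce in tumours, was at 4.39 and 4.01 in Ctl and at 4.07 and 4.28 in shPW1, with an interval from -0.42 to 0.37. Car6 was at 3.89 and 4.13 in Ctl and at 4.02 and 4.09 in shPW1, with an interval from -0.21 to 0.30.

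In these 3 genes the arrays of the groups overlapped. Car12 was at 5.01 and 4.91 in Ctl and at 5.11 and 5.02 in shPW1. Its shPW1 arrays were narrowly above its Ctl arrays, with a log2 difference of 0.11 (95% interval from -0.08 to 0.29) that did not pass the threshold. Of all probe sets tested, 55.5% had groups that did not overlap, in either direction, against 5 of these 10 genes. All 4 outward-facing enzymes, like Car2, had a mean below the middle value of the table, and whether these genes were expressed at all was not tested.

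The 6 family genes outside the list, which were Car1 and Car7 (cytosolic), Car5a (mitochondrial), Car10 (related protein), Car14 (transmembrane) and Car15 (lipid-anchored), all overlapped between the groups and did not pass the threshold. Their log2 differences ran from -0.16 for Car5a to 0.00 for Car15. All 6 had a mean below the middle value of the table. Of the 5 cytosolic enzymes on the array 3 were lower, Car1 and Car7 being the other two, at log2 differences of -0.01 and -0.03.

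Car13, Car1, Car3 and Car2 lie next to each other in that order among the protein-coding genes of mouse chromosome 3 (RefSeq, GRCm38.p6). The choice of the family did not use this position. Car1, between Car13 and Car3, was at 4.03 and 4.24 in Ctl and at 4.22 and 4.03 in shPW1, and it overlapped between the groups at a level below the middle of the table. On the Car13 side the next gene, Rbis, had values of 6.79 and 6.77 in both groups, and E2f5, a cell cycle transcription factor, had a log2 difference of 0.05 (adjusted p = 0.716 from limma). Lrrcc1, a centrosome protein gene one place further, was lower in shPW1, at 7.74 and 7.67 in Ctl against 6.94 and 7.17 (log2 difference -0.65, standard error 0.09, adjusted p = 0.0283 from limma). On the Car2 side the predicted gene Gm9733 had a log2 difference of 0.01. The lower genes of this stretch were not an unbroken run. Car2, Car3 and Car13 are related in sequence, and whether their probes share signal was not tested.

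**Figure D2:**
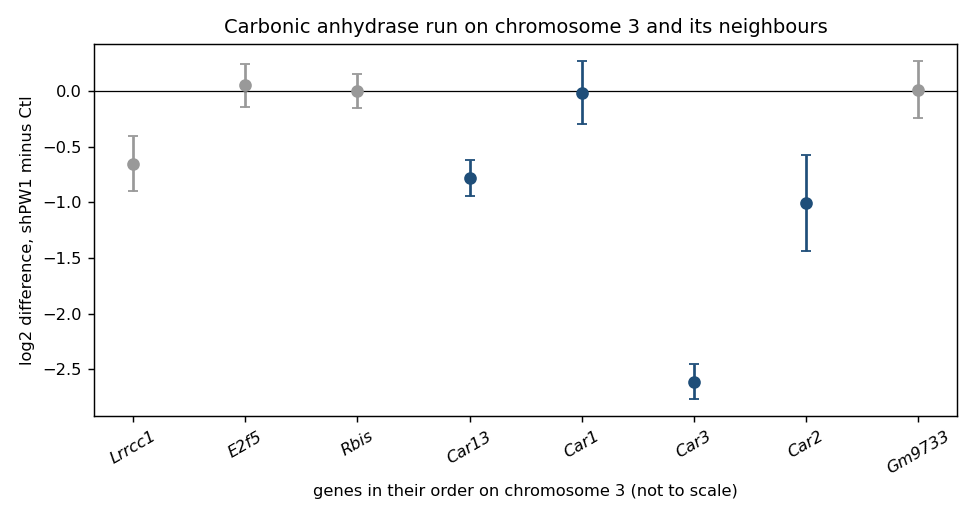
Log2 difference of shPW1 minus Ctl (vertical axis, point) with its 95% interval (bar) for genes in their order on chromosome 3 (horizontal axis, not to scale); carbonic anhydrases are blue and other genes grey. Car3 lies at -2.61, Car2 at -1.00 and Car13 at -0.78, while Car1 among them lies at -0.01 and Lrrcc1 at -0.65.

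The profile of Car3 over the 4 arrays was set beside that of every named gene as the distance between log2 values taken relative to the Ctl mean. The nearest were Islr, an immunoglobulin and leucine-rich repeat protein of mesenchymal cells (distance 0.23), Igfbp2 (0.31), which binds insulin-like growth factors, Aspn (0.36), a matrix proteoglycan, Cadm4 (0.43), a cell adhesion molecule, and Peg3 itself (0.43). Islr was at 9.41 and 9.26 in Ctl and at 6.75 and 6.53 in shPW1, and Igfbp2 at 9.28 and 9.26 against 6.86 and 6.87. With 2 groups of 2 arrays, a small distance says mainly that the group difference is of a like size.

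Bicarbonate made by these enzymes crosses membranes through transporters of the Slc4 and Slc26 families. Of 18 measured members, 3 were lower in shPW1 and 0 were higher, with a middle log2 difference of -0.12. The sodium-coupled transporters Slc4a8 and Slc4a4 had log2 differences of -0.65 (adjusted p = 0.0136 from limma) and -0.39 (0.0287), and the sulfate transporter Slc26a2 had -0.37 (0.0299). Slc4a8 was at 8.04 and 7.96 in Ctl and at 7.31 and 7.38 in shPW1, and no array of one group reached into the other.

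Protons leave the cell through sodium-proton exchangers and with lactate through monocarboxylate transporters, which carbonic anhydrases are known to assist. The list for this group also held partner and regulator genes (Slc9a3r1, Slc9a3r2, Chp1, Chp2, Bsg and Emb) and the proton channel gene Hvcn1. None of these passed limma's threshold. Of the 19 measured genes of the whole list, 1 was higher and 2 were lower. The higher one was Slc16a1 (MCT1, log2 difference 0.34, adjusted p = 0.0348 from limma), and the lower ones were Slc16a3 (MCT4, -0.88, adjusted p = 0.00868) and the endosomal exchanger Slc9a9 (-0.41, adjusted p = 0.0332). Slc16a3, the lactate exporter of glycolytic cells, was at 9.59 and 9.52 in Ctl and at 8.72 and 8.62 in shPW1. Their shared chaperone Bsg had a log2 difference of 0.03.

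Of 6 measured channels linked to the passage of CO2 or ammonia, Aqp1 was lower and the other 5 did not pass. Aqp1, a water channel that also lets CO2 through, was at 10.72 and 10.62 in Ctl and at 9.79 and 9.83 in shPW1 (log2 difference -0.86, adjusted p = 0.00868 from limma). Of 9 measured enzymes that use bicarbonate, 1 was higher and 1 was lower. Pcx, the mitochondrial pyruvate carboxylase that Car5b is known to supply, had a log2 difference of 0.59 (adjusted p = 0.0183 from limma), and Acaca, the acetyl-CoA carboxylase of fatty acid synthesis, had -0.39 (0.0341). Of the IP3 receptors, Itpr2 was lower (-0.63, adjusted p = 0.0151) and Itpr3 did not pass (0.05), while Itpr1 had no probe set under its symbol alone.

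**Figure D3:**
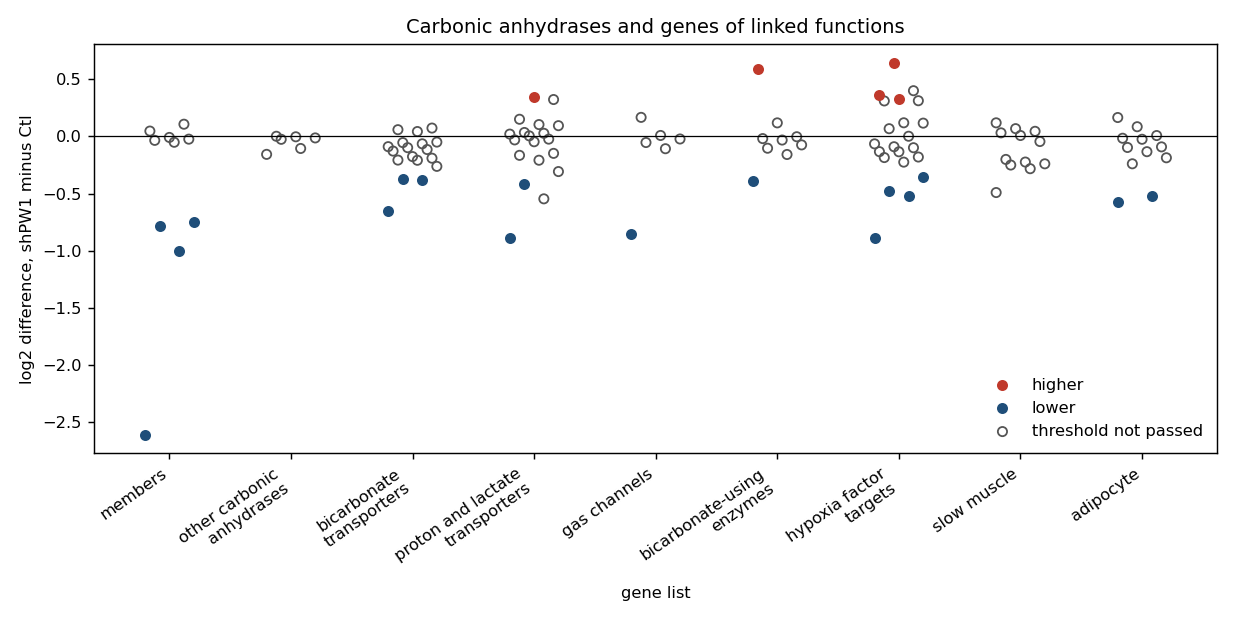
Log2 difference of shPW1 minus Ctl (vertical axis) for the 10 carbonic anhydrase members and for genes of linked functions and of tissues rich in Car3 (horizontal axis, gene lists); each point is 1 gene, with red for genes that passed as higher, blue for those that passed as lower, and open points for the rest. Car3 at -2.61 lies below every other gene drawn, and the hypoxia factor targets spread from Bnip3 at -0.89 to Egln3 at 0.64.

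Car9 and Car12 are known targets of hypoxia-inducible factors. Of 22 measured common targets of these factors, 15 did not pass, 3 were higher and 4 lower, with a middle log2 difference of -0.08. Egln3, a prolyl hydroxylase that limits the factors, rose (0.64, adjusted p = 0.0119 from limma), as did Vegfa (0.37, adjusted p = 0.0388), while the mitophagy gene Bnip3 (-0.89, adjusted p = 0.00781), the kinase Pdk1 (-0.53, adjusted p = 0.0165) and the glycolytic regulator Pfkfb4 (-0.47, adjusted p = 0.0228) fell. The 100 bases before the start of Car9 are given from RefSeq (GRCm38.p6, plus strand, chr4:43506926-43507025). Capitals mark a match to the core of the hypoxia response element, which reads ACGTG on the opposite strand.

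Car9: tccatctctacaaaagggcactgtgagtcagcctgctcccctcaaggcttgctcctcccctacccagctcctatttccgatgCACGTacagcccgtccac

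The core began -18 bases from the start. Promoter windows of 300 bases around the start were at hand for 6 of the 10 genes (Car4, Car5b, Car6, Car9, Car11 and Car12). Those of Car2, Car3, Car8 and Car13, the 4 genes that passed as lower, were not analysed here. Searched on both strands, the core was found in those of Car4, Car6 and Car9, and in 19.6% of 32851 mouse promoter windows. The DNA motif described for PW1, also searched on both strands, was in 0 of the windows of these 6 genes and in 0.484% of all windows. Such a match or its lack in this window does not show whether a factor binds.

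Car3 is abundant in slow muscle and in adipocytes, so genes of both were counted. Of 12 slow muscle genes, 8 had a mean below the middle value of the table, where a value may hold no signal of the gene. Over the 12 genes, 0 passed limma's threshold in either direction, and their middle log2 difference was -0.12. Tnni1, the slow troponin I, had the largest, at -0.49. Their summed level (log2 of the sum of linear values) was 12.87 to 12.88 in Ctl and 12.95 to 12.96 in shPW1, a sum set by the bright Tpm3 (0.12) and Atp2a2 (0.04), which many other cells express. Of 12 measured adipocyte genes, 2 were lower and 0 were higher, with a middle log2 difference of -0.09, and the summed level was 9.93 to 9.94 in Ctl and 9.58 to 9.64 in shPW1. A mean below the middle value of the table was found for 9 of these 12. The 2 lower genes, the adipogenic regulators Pparg (-0.58, adjusted p = 0.0190 from limma) and Cebpa (-0.52, adjusted p = 0.0337), are also expressed in progenitors. The fat cell markers Adipoq and Plin1 had Ctl means of 3.45 and 5.18, below the middle value of the table, and log2 differences of 0.08 and -0.02.

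Some genes of other cell marker lists also passed the threshold. Over all probe sets tested, 4.17% were lower and 4.93% were higher. That background was not matched for level, and most genes of the lists in this paragraph lay above the middle value of the table. Whether these lists differ from the background was not tested. Of 10 satellite cell and myoblast genes, 5 were lower and 1 was higher, with a middle log2 difference of -0.34 and a summed level of 12.17 to 12.18 in Ctl and 11.84 to 11.85 in shPW1. Myod1 had a log2 difference of -1.72, Myog of -0.71, Chrna1 of -0.66 and Cdh15 of -0.64, and Vcam1 was the higher one (0.44). The remaining lower gene, Des, was counted in this list and again in the next. Of 11 mesoangioblast and pericyte genes, 6 were lower and 1 was higher, among them Notch3 (-1.10), Anpep (-1.06), Cspg4 (-0.66) and Des (-0.55), and their middle log2 difference was -0.35. Their summed level was 13.78 to 13.79 in Ctl and 13.75 to 13.79 in shPW1, a sum set largely by Acta2, which did not pass (0.16). Of 10 fibroblast and fibro-adipogenic progenitor genes, 2 were lower, Dcn (-0.71) and Pdgfra (-0.38), and Mfap5 was higher (0.60). Their middle log2 difference was -0.21, with summed levels of 14.21 to 14.24 in Ctl and 13.96 to 14.02 in shPW1. That sum was set largely by the collagen genes Col1a1 (-0.25), Col1a2 (-0.27) and Col3a1 (-0.25), which did not pass. In RNA from whole cultures, fewer cells of a type and less RNA per cell cannot be told apart, and the part of these cell markers in the fall of Car3 was not tested.

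Red cells and osteoclasts are rich in Car2. Of 6 measured red cell genes 1 was higher, the transferrin receptor gene Tfrc (0.38, adjusted p = 0.0305 from limma), which dividing cells also express. Their summed level of 11.04 to 11.05 in Ctl and 11.38 to 11.42 in shPW1 was set by Tfrc, and the other 5 measured genes lay below the middle value of the table and did not pass. Of 10 osteoclast genes 0 passed limma's threshold, with a middle log2 difference of 0.02, and Mmp9 had the largest difference (0.42). Their summed level was 9.75 to 9.88 in Ctl and 9.57 to 9.60 in shPW1, a sum set by the integrin gene Itgb3 (-0.37), while the other 9 genes had a mean below the middle value of the table. None of 10 endothelial genes (summed level 8.52 to 8.54 in Ctl, 8.42 to 8.52 in shPW1) and none of 9 leukocyte genes (8.10 to 8.20 in both groups) passed limma's threshold. Of them, 9 endothelial and 8 leukocyte genes had a mean below the middle value of the table. The largest differences in these lists were those of Kdr (-0.20) and Ptprc (0.27).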

How the data were processed

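RNA was hybridised to 4 Affymetrix Mouse Gene ST arrays. The log2 values were deposited by the authors after RMA in Partek (6.4 according to the submitters' processing notes), so background correction, normalization and summarization precede these analyses. Of 35556 rows, 21789 had exactly 1 gene symbol in the array annotation and were tested. Another 1621 had several and 12146 had none. Groups were compared in limma 3.58.1 under R 4.3.3 by lmFit and then eBayes, two-sided, with 2 residual and 2.72 prior degrees of freedom, with Benjamini-Hochberg adjustment over all probe sets tested and a threshold of 0.05. The fit was tested on simulated data first. A gene with several probe sets counted by its brightest.

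The genes and gene lists were chosen with earlier results of these data known. Named were all family genes, Peg3, up to 4 genes with the largest change among those past the threshold in each list, or the gene with the largest change where none passed, the 5 nearest to Car3, and chromosomal neighbours. Genes added for their known role, chosen after their values were seen, were Vegfa, Vcam1, Bsg, Itpr3, Adipoq and Plin1. The markers used to check the cell label were also chosen then. So were the genes that set a list's summed level (Tpm3, Atp2a2, Acta2, Itgb3, Col1a1, Col1a2 and Col3a1). Slc9a3r1, Slc9a3r2, Chp1, Chp2, Emb and Hvcn1 were named to say what their list held. No depth exists for arrays, and their number limits the precision. Alternatives were tests of all rows or of bright probe sets alone, quantile normalization applied again, array medians subtracted, a robust prior with a trend, the methods' analysis of variance, a replicate block, and fits on 3 of the 4 arrays.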

Additional observations from a re-analysis of the deposited data

How the results depend on the processing

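The choice of rows, the prior, the analysis of variance and the blocks leave the log2 differences themselves as they are and bear on the calls alone. The second quantile normalization, the median subtraction and leaving out an array can move them. Car2, Car3, Car8 and Car13 stayed below 0 there, while 14 values of the other 6 genes changed sign. The sign of Car3 was already known when the family was chosen. Of the 10 genes, 4 passed as lower in the reported fit. This fell to 1 (Car3) when all rows were tested to 3 (Car3, Car8 and Car13) in the unadjusted analysis of variance of the methods, and to 0 after its adjustment, as it did with any 1 array left out (from 0 to 0), and 0 were higher throughout. Over the table, 1075 probe sets were higher and 908 lower in the reported fit, and of the genes of the 16 lists 9 were higher and 26 lower. With all rows tested these were 36 and 50 probe sets, and 0 and 3 genes. With dim probe sets left out they were 2505 and 1799 probe sets, with a trended robust prior 2735 and 1978 (17 list genes higher), and with array medians subtracted 1637 were higher (14 list genes) and 698 lower, a shift of 0.06 in the middle log2 difference. The unadjusted analysis of variance called 1383 probe sets higher and 1165 lower. After adjustment 1 and 1 probe sets, and 0 and 0 list genes, passed. Leaving out any 1 array gave 0 calls of either kind, with 1 residual degree of freedom.

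Same-numbered arrays deviated from their group means with a correlation of -0.11, so the numbers were not taken as pairs. With the replicate block, 256 probe sets were higher and 258 lower, with 3 and 12 list genes. With crossed pairing, chosen after seeing the data, they were 213 and 224, with 1 and 12. Of the 10 genes 3 passed with the replicate block (Car3, Car8 and Car13) and 3 with crossed pairing (Car2, Car3 and Car13). Each of the 10 genes had 1 probe set, so no choice among probe sets arose for them. Why the counts differ between these settings was not tested. The number of arrays limits the precision, and no detection call was available.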
